A study of Mus musculus with 10 samples.

Results

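The genes described here mark T cells, natural killer (NK) and cytotoxic cells, and B cells, and their expression was read in 10 mouse tumors. The list holds 35 genes out of 18916 named genes that had a probe in the deposited table. It was drawn up by cell type, with 19 T cell genes, 10 NK and cytotoxic genes and 6 B cell genes, and each gene was read by the probe that was brightest in the red channel on average over the 10 arrays. All 35 genes were found.

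T cells recognise peptides through a receptor that is carried to the surface by the CD3 chains (Cd3d, Cd3e, Cd3g and Cd247), and CD4 or CD8 (Cd8a, Cd8b1) selects the class of antigen-presenting molecule that is engaged. NK cells and activated CD8 T cells kill their targets with perforin (Prf1) and granzymes (Gzma, Gzmb), so most cytotoxic genes do not tell these cells apart, while the receptor Ncr1 is largely particular to NK cells and related innate cells. B cells signal through a receptor that contains Cd79a and Cd79b, and display Ms4a1 (CD20) on their surface. In solid tumors such transcripts come mainly from infiltrating cells and not from the carcinoma cells. In pieces of whole tumor, fewer cells of a type and less RNA per cell cannot be told apart.

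The 10 tumors fell into 2 histological groups of 5, with 1 Agilent array a tumor. The 5 adenocarcinomas (tumors 105, 131, 470, 17 and 85) were primary mammary tumors of mice that carried both Pik3ca H1047R and Trp53 R270H with the transgene MMTV-Cre. The 5 sarcomatoid (spindle cell) tumors were mammary tumors 323, 307 and 594 and lung tumors 323 and 307, the last 2 grown after tail vein injection of cell lines made from the mammary tumors of the same number, so the 5 arrays hold 3 tumor origins. Tumors 323 and 307 and their lung counterparts came from a primary of that same genotype and from one with MMTV-Cre and Pik3ca H1047R alone that had gained Trp53 R245H on its own, without a label saying which is which, and tumor 594, as the remaining sarcomatoid primary, carried Trp53 R270H and MMTV-Cre only. The MMTV promoter drives Cre mainly in mammary epithelium, the compound mutant mice were on a C57BL/6 background, and the study names C57BL/6 as the strain injected in its tests of knockout and parental lines, without saying that these 2 lung tumors grew in those mice.

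Values are log2 ratios of red over green, in which red was read as the tumor and green as a common reference RNA. The labels name Cy3, the green dye, for the tumor RNA, but the green signals differed less between arrays (mean SD 0.737 in log2) than the red signals (0.979), and all columns ran the same way. If the dye label were right, every sign below would turn. Feature extraction was run with 3 protocol versions, which split the arrays as their scan days do, and the 3 sets are called scan batches here. Batch 1 held mammary tumor 323, batch 2 held mammary tumors 307 and 594 and adenocarcinomas 105 and 470, and batch 3 held both lung tumors and adenocarcinomas 131, 17 and 85. The comparisons below share arrays with each other. The labels do not say whether the tumors of a group came from separate mice, and the p-values measure only the spread between these samples. In adenocarcinoma 470 the 7 epithelial marker genes had a mean log2 ratio of -2.10, against 2.75 to 3.15 in the other adenocarcinomas, 0.33 to 1.15 in the mammary sarcomatoid tumors and -3.12 to -2.15 in the lung tumors, so its markers went against its label.

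The red signal of the lymphocyte genes was well above background on all 10 arrays for 8 of the 35 genes, on at least 5 arrays for 31, and on fewer than 5 arrays for Ctla4, Foxp3, Pax5 and Blk. None was saturated. Over all probes, 72.3% to 83.0% were well above background in red in scan batches 1 and 2, and 52.2% to 67.2% in batch 3. In green the shares were 69.3% to 75.4% and 45.9% to 60.1%. Among the 35 genes, green was well above background on 0 arrays for Prf1, Ifng, Eomes, Cd247, Ctla4 and Blk. It was so on 1 array for Klrd1, Ncr1, Il7r, Icos and Pax5, and on all 10 for others, such as Cd3e and Cd3g. Ratios of the former genes rest on a reference near background. The pan-leukocyte list of 12 genes had a mean log2 ratio between 0.23 and 1.06 in the 5 sarcomatoid tumors and between -1.56 and 0.40 in the 5 adenocarcinomas. Ptprc (CD45), the antigen that defines leukocytes, was measured and was 1.57 higher in sarcomatoid tumors (limma adjusted p = 0.476).

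RefSeq (assembly GRCm38.p6) gave a promoter for 24 of the 35 genes, and the 250 bases before the start site are shown for 6 genes on which the values below turn. Those without an entry were Cd4, Cd8b1, Cd2, Cd28, Icos, Lag3, Klrd1, Il2rb, Cd79b, Ms4a1 and Blk. Each sequence runs 5′ to 3′ on the gene's own strand. Capitals mark matches, on either strand, to 6 motifs. The ETS core was searched as GGAAGT and the RUNX motif as TGTGGT. The T-box motif was searched as GGTGTGA and the octamer as ATTTGCAT. The E-box was searched as CAGCTG and the GATA motif as AGATAA. The Cd3d (chr9:44981536-44981785, plus strand) and Cd3g (chr9:44980432-44980681, minus strand) promoters lie back to back, with 1355 bases between the start sites. Those of Prf1 (chr10:61297586-61297835, plus strand), Nkg7 (chr7:43436888-43437137, plus strand) and Gzmb (chr14:56262335-56262584, minus strand) belong to genes of cytotoxic granules, and that of Cd79a (chr7:24897247-24897496, plus strand) to a chain of the B cell receptor.
Cd3d: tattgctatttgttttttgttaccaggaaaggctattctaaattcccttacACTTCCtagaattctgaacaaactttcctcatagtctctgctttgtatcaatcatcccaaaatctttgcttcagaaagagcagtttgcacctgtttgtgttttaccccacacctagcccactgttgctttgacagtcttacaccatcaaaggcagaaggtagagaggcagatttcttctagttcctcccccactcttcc
Cd3g: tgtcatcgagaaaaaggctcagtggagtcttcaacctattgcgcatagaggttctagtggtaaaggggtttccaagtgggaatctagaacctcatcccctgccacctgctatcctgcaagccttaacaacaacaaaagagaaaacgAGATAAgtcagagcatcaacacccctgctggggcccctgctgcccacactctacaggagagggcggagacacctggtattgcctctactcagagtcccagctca
Prf1: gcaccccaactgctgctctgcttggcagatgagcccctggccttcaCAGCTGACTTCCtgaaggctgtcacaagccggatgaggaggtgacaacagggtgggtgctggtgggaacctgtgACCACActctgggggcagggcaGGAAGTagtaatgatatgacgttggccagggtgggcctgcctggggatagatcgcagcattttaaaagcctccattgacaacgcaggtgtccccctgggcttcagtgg
Nkg7: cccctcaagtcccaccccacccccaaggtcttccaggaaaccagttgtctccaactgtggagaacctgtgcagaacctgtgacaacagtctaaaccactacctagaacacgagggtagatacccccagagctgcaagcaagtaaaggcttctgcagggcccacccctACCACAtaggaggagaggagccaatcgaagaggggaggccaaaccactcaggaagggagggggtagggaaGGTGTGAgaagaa
Gzmb: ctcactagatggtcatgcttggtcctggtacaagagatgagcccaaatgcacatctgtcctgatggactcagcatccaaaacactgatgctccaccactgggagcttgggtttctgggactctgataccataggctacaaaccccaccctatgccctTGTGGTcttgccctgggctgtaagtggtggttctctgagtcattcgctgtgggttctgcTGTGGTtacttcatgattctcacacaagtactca
Cd79a: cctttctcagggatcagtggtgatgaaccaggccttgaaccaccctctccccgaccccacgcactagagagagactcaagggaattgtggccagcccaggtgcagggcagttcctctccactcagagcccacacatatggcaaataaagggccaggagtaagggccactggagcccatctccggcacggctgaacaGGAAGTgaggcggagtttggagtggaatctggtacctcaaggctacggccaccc

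The ETS letters were in 9 of the 24 promoters (Cd247, Lck, Cd79a, Cd3d, Cd3e, Prf1, Tbx21, Il7r and Cd5), against 20.0% of 27025 promoters of the same length. The RUNX letters were in 6 of the 24, namely Ncr1, Nkg7, Prf1, Gzma and Gzmb of the 8 NK and cytotoxic genes with an entry, and Lck of the 13 T cell genes, against 14.2% of all promoters. The T-box letters were in Nkg7 alone (3.3% of all promoters), the E-box in Prf1 alone (12.8%), where it adjoins an ETS match, and the GATA letters in Cd3g alone (10.3%). The octamer was in none of the 24 (1.6% of all). These are matches of letters in a short window and say nothing about the binding of a factor.

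The first comparison asked which lymphocyte genes differ between sarcomatoid tumors and adenocarcinomas. Genes of NK and cytotoxic cells were the higher ones in sarcomatoid tumors, led by the NK receptor chain Klrd1 (4.14-fold), granzyme B (Gzmb, 3.24-fold) and the granule protein Nkg7 (2.69-fold), while the T cell and B cell genes showed small differences in both directions. None of the 35 genes passed the limma test over all probes at an adjusted p below 0.05, where 0% of 40196 probes did. At an unadjusted p below 0.05, 3 genes were higher (Klrd1, Gzmb and Nkg7, against 4.98% of all probes) and 0 were lower (4.25% of all probes). The groups overlapped for each of the 35 genes, while they did not overlap for 0.866% of probes higher and 0.468% lower in sarcomatoid tumors. The median difference over the 35 genes was 0.24 in log2, with 24 genes higher and 11 lower, and over all probes it was -0.002. It was 0.24 for the 19 T cell genes (13 higher), 1.04 for the 10 NK and cytotoxic genes (8 higher) and -0.01 for the 6 B cell genes (3 higher). Without adenocarcinoma 470, 0 of the 35 genes passed the adjusted p, 8 had an unadjusted p below 0.05, and the median of the NK and cytotoxic genes was 1.37. Within scan batch 2 that median was -0.21 and within scan batch 3 it was 1.87. The sarcomatoid tumors of batch 3 were both grown in the lung from injected cell lines, and its adenocarcinomas were mammary primaries. Histology, tissue and injection thus cannot be told apart in the value of 1.87.

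**Figure D1:**
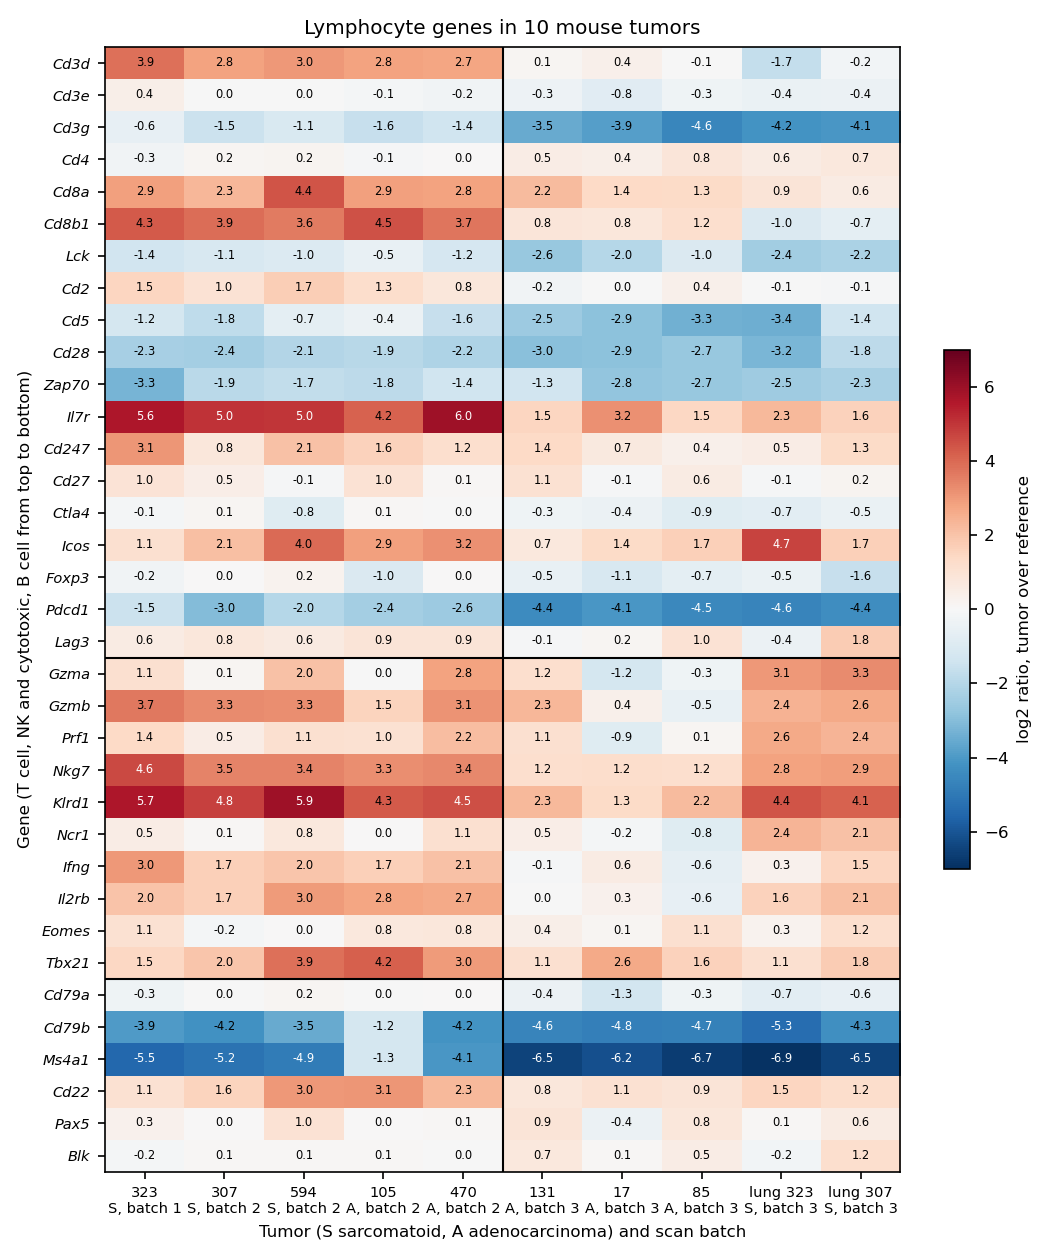
Log2 ratio of tumor over reference for the 35 lymphocyte genes (rows) in 10 tumors (columns, S sarcomatoid and A adenocarcinoma, with scan batch), each cell printed to 1 decimal and coloured from blue (below 0) to red (above 0). Horizontal lines part T cell, NK and cytotoxic, and B cell genes, and the vertical line parts scan batches 1 and 2 from batch 3. Cd3d, Cd3g, Cd8b1 and Pdcd1 change level at the vertical line, and Cd79b and Ms4a1 are highest in adenocarcinoma 105.

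Klrd1 (CD94), which pairs with NKG2 chains to form receptors of NK cells and some CD8 T cells, was read by a probe at chr6:129621685-129621744 (mm7). Its log2 ratio was 5.67, 4.80 and 5.95 in mammary sarcomatoid tumors 323, 307 and 594, 4.38 and 4.11 in lung tumors 323 and 307, 4.30 and 4.54 in adenocarcinomas 105 and 470, and 2.28, 1.32 and 2.23 in adenocarcinomas 131, 17 and 85. All 5 sarcomatoid tumors lay above the adenocarcinomas of scan batch 3, while lung tumors 323 and 307 lay within or below the range of adenocarcinomas 105 and 470. The mean was 4.98 ± 0.80 (SD, n = 5) in sarcomatoid tumors and 2.93 ± 1.41 (SD, n = 5) in adenocarcinomas, a difference of 2.05 (SE 0.63, limma adjusted p = 0.387). An exact permutation test of this gene alone gave p = 0.0397 (two-sided), where 0.00794 is the smallest value that 5 against 5 arrays allow. This test and the permutation tests below treat the 5 sarcomatoid arrays as independent, though they hold 3 tumor origins. Klrd1 was also among the genes picked for the smallest p.

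Gzmb, the protease of cytotoxic granules that starts apoptosis in a target cell (chr14:51126432-51126491), had a log2 ratio of 3.67, 3.33 and 3.26 in mammary sarcomatoid tumors 323, 307 and 594, 2.43 and 2.65 in lung tumors 323 and 307, 1.53 and 3.12 in adenocarcinomas 105 and 470, and 2.34, 0.37 and -0.50 in adenocarcinomas 131, 17 and 85. The sarcomatoid tumors were all at 2.43 or above, adenocarcinoma 470 lay among them and adenocarcinoma 131 just below. The difference was 1.70 (SE 0.60, limma adjusted p = 0.433, exact permutation p = 0.0317, two-sided). Gzma, a granzyme of a different specificity, differed by 1.43 (SE 0.77, limma adjusted p = 0.601, exact permutation p = 0.143), with log2 ratios of 1.10, 0.14 and 2.02 in mammary sarcomatoid tumors 323, 307 and 594, 3.05 and 3.29 in lung tumors 323 and 307, -0.04 and 2.80 in adenocarcinomas 105 and 470, and 1.19, -1.20 and -0.28 in adenocarcinomas 131, 17 and 85. For this gene the lung tumors were the highest, followed by adenocarcinoma 470, and mammary sarcomatoid tumor 307 lay with the adenocarcinomas.

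Nkg7, a membrane protein of cytotoxic granules (chr7:39613682-39613741), had a log2 ratio of 4.60, 3.49 and 3.45 in mammary sarcomatoid tumors 323, 307 and 594, 2.82 and 2.94 in lung tumors 323 and 307, 3.25 and 3.37 in adenocarcinomas 105 and 470, and 1.17, 1.22 and 1.17 in adenocarcinomas 131, 17 and 85. Adenocarcinomas 105 and 470 lay above both lung tumors, and the other 3 adenocarcinomas lay far below every other array. The difference was 1.42 (SE 0.54, limma adjusted p = 0.458, exact permutation p = 0.0794), and its other probe gave 1.33. Prf1, the pore-forming protein that lets granzymes into the target cell, was at 1.38, 0.49 and 1.11 in mammary sarcomatoid tumors 323, 307 and 594, 2.65 and 2.39 in lung tumors 323 and 307, 1.04 and 2.18 in adenocarcinomas 105 and 470, and 1.13, -0.86 and 0.12 in adenocarcinomas 131, 17 and 85. Ncr1 (NKp46), the activating NK receptor (chr7:3902600-3902659), was at 0.52, 0.11 and 0.76 in mammary sarcomatoid tumors 323, 307 and 594, 2.38 and 2.06 in lung tumors 323 and 307, 0.01 and 1.10 in adenocarcinomas 105 and 470, and 0.48, -0.16 and -0.83 in adenocarcinomas 131, 17 and 85. The Prf1 difference was 0.88 (limma adjusted p = 0.678) and that of Ncr1 was 1.05 (0.550). In both genes the lung tumors stood above all mammary tumors of either histology, and the mammary tumor nearest to them was adenocarcinoma 470.

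The remaining NK and cytotoxic genes were the cytokine interferon gamma (Ifng, 0.95), the interleukin 2 and 15 receptor chain Il2rb (1.04), and the transcription factors of cytotoxic lymphocytes Eomes (-0.17) and Tbx21 (-0.47), as log2 differences with limma adjusted p from 0.657 to 0.912. A further list of NK and cytotoxic genes, of which 12 of 13 were measured, had a median difference of 1.10 with 12 of 12 higher and 0 called. Its largest differences were those of the chemokine Xcl1 (1.59), the cathepsin inhibitor Cst7 (1.41), and granzymes Gzmc (1.34) and Gzmk (1.23). All 12 pan-leukocyte genes were higher as well (median 1.24), and so were all 12 myeloid genes (median 1.58, for example Adgre1 at 1.80 and Csf1r at 1.71), with 0 called on either list. The part of these cells in the NK and cytotoxic values was not tested.

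**Figure D2:**
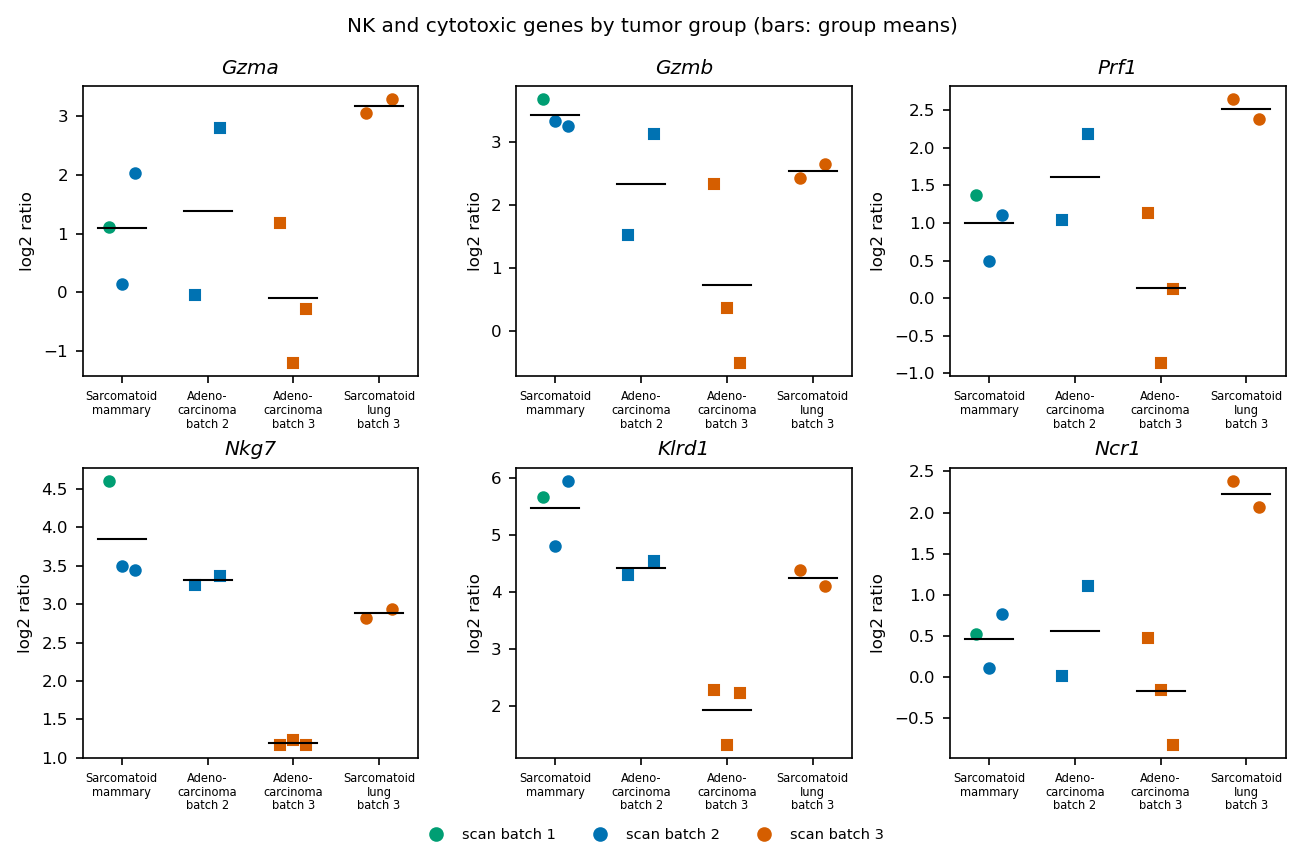
Log2 ratio of 6 NK and cytotoxic genes by tumor group. Circles are sarcomatoid tumors, squares adenocarcinomas, colours scan batches and bars group means. Klrd1 and Nkg7 are lowest in the 3 adenocarcinomas of scan batch 3, and Gzma, Prf1 and Ncr1 are highest in the 2 lung tumors.

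None of the 19 T cell genes had an unadjusted p below 0.05 between the histologies. Cd3e, the CD3 epsilon chain, was at 0.42, -0.04 and -0.02 in mammary sarcomatoid tumors 323, 307 and 594, -0.44 and -0.41 in lung tumors 323 and 307, -0.13 and -0.23 in adenocarcinomas 105 and 470, and -0.35, -0.80 and -0.28 in adenocarcinomas 131, 17 and 85. It differed by 0.26 (SE 0.25, limma adjusted p = 0.796). Cd4, the co-receptor of helper T cells, was at -0.27, 0.16 and 0.18 in mammary sarcomatoid tumors 323, 307 and 594, 0.58 and 0.73 in lung tumors 323 and 307, -0.10 and 0.05 in adenocarcinomas 105 and 470, and 0.49, 0.44 and 0.83 in adenocarcinomas 131, 17 and 85. By log2 ratio it was the only T cell gene that was higher in scan batch 3 than in the other batches without overlap. Its median red spot intensity went the other way, at 122 to 204 in batches 1 and 2 and 56 to 102 in batch 3. Its log2 ratio differed by -0.06 between the histologies (SE 0.28, limma adjusted p = 0.966). Foxp3, the transcription factor of regulatory T cells, was dim, with its red signal well above background on 3 of 10 arrays, and its log2 ratio ran from -1.59 in lung tumor 307 to 0.23 in mammary tumor 594. Across the tumors it was -0.25, 0.03 and 0.23 in mammary sarcomatoid tumors 323, 307 and 594, -0.48 and -1.59 in lung tumors 323 and 307, -1.03 and 0.05 in adenocarcinomas 105 and 470, and -0.51, -1.12 and -0.68 in adenocarcinomas 131, 17 and 85, a difference of 0.24 (limma adjusted p = 0.888). The genes of further T cell signalling and identity (23 of 24 measured) had a median difference of 0.14, with 16 higher and 0 called, the largest being those of the adaptor Lcp2 (1.50) and the receptor Tnfrsf9 (1.45).

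The second comparison asked how sarcomatoid tumors grown in the lung (2 arrays) differ from those of the mammary gland (3 arrays). T cell genes were lower in the lung tumors, by 27.8-fold for the CD8 beta chain (Cd8b1), 17.8-fold for the CD3 delta chain (Cd3d), 9.67-fold for the interleukin 7 receptor (Il7r), 8.35-fold for the CD3 gamma chain (Cd3g) and at least 4.36-fold for the CD8 alpha chain (Cd8a). Cd8b1 and Cd3d were well above background in red in only 1 of the 2 lung tumors. Their folds thus rest in part on a lung value that was not well above background. A few cytotoxic genes went the other way, with Gzma 4.23-fold, Ncr1 3.39-fold and Prf1 2.87-fold higher. Ncr1 was well above background in red in 1 of the 3 mammary sarcomatoid tumors. None of the 35 genes passed limma at an adjusted p below 0.05, where 0.0249% of all probes did, and the smallest adjusted p among them was 0.212. At an unadjusted p below 0.05, 8 genes were lower, all T cell genes (against 5.1% of all probes), and Ncr1 was higher (5.59%). The arrays did not overlap for 17 genes that were lower (16.9% of probes) and 4 that were higher (17.5%). With 2 against 3 arrays the smallest p of an exact permutation test is 0.1, so no single gene was tested that way.

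Among other cells, all 7 epithelial genes were lower in the lung tumors (median -3.42, 4 of them at an unadjusted p below 0.05 and 0 called), while the medians were -0.05 for the pan-leukocyte genes (6 of 12 lower) and 0.10 for the myeloid genes (5 of 12 lower). The part of the epithelial shift in the lymphocyte values was not tested.

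The median difference between lung and mammary sarcomatoid tumors was -0.88 over the 35 genes, with 27 lower, against 0.03 over all probes. It was -1.04 for the T cell genes (16 of 19 lower), -0.63 for the NK and cytotoxic genes (6 of 10 lower) and -0.56 for the B cell genes (5 of 6 lower). Lung and mammary sarcomatoid tumors never shared a scan batch, so the tissue and the scan batch cannot be told apart in these values. A fit with scan batch as a term, which takes the batch difference from the adenocarcinomas, gave medians of -0.10 (T cell), 1.45 (NK and cytotoxic) and 0.43 (B cell). Mammary tumor 323, the only array of its batch, does not enter the difference in that fit.

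Cd8b1 (chr6:71355005-71355063) showed the largest difference. Its log2 ratio was 4.31, 3.89 and 3.61 in mammary sarcomatoid tumors 323, 307 and 594, -1.01 and -0.71 in lung tumors 323 and 307, 4.46 and 3.75 in adenocarcinomas 105 and 470, and 0.84, 0.78 and 1.16 in adenocarcinomas 131, 17 and 85. The 2 lung tumors were below every other tumor, but the adenocarcinomas of scan batch 3, with a mean of 0.93, were also well below those of batch 2, with a mean of 4.11. The difference between lung and mammary sarcomatoid tumors was -4.80 (SE 1.03, limma adjusted p = 0.212), and -1.43 (adjusted p = 0.692) with scan batch as a term. A different probe that carries the name Cd8b1, and that was well above background on all arrays, gave 0.50.

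Cd8a (chr6:71395267-71395326), its partner chain in the CD8 of conventional T cells, had log2 ratios of 2.88, 2.35 and 4.42 in mammary sarcomatoid tumors 323, 307 and 594, 0.90 and 0.59 in lung tumors 323 and 307, 2.88 and 2.82 in adenocarcinomas 105 and 470, and 2.23, 1.40 and 1.33 in adenocarcinomas 131, 17 and 85. It was not well above background in either lung tumor and was well above it in all 3 mammary sarcomatoid tumors (limma adjusted p = 0.279). Its other 2 probes gave -1.46 and -3.18, in the same direction. Cd3d (chr9:44920433-44920664) was at 3.86, 2.81 and 3.03 in mammary sarcomatoid tumors 323, 307 and 594, -1.68 and -0.17 in lung tumors 323 and 307, 2.81 and 2.74 in adenocarcinomas 105 and 470, and 0.14, 0.38 and -0.05 in adenocarcinomas 131, 17 and 85. The tumors of scan batches 1 and 2 lay at 2.74 or above and those of batch 3 at 0.38 or below, whatever their histology. Lung and mammary sarcomatoid tumors differed by -4.16 (SE 0.93, limma adjusted p = 0.212), and by -1.22 (adjusted p = 0.834) with scan batch as a term.

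Cd3g, the gene that shares its promoter region with Cd3d (chr9:44907978-44908562), was at -0.60, -1.52 and -1.09 in mammary sarcomatoid tumors 323, 307 and 594, -4.18 and -4.08 in lung tumors 323 and 307, -1.59 and -1.40 in adenocarcinomas 105 and 470, and -3.52, -3.88 and -4.59 in adenocarcinomas 131, 17 and 85. For Cd3g too the tumors of scan batches 1 and 2 lay above those of batch 3, but adenocarcinoma 85 lay below both lung tumors. Lung and mammary sarcomatoid tumors were -3.06 apart (SE 0.86, limma adjusted p = 0.299) and -0.33 apart with scan batch as a term. Il7r, which naive and memory T cells need for survival, was at 5.64, 5.05 and 5.01 in mammary sarcomatoid tumors 323, 307 and 594, 2.27 and 1.64 in lung tumors 323 and 307, 4.15 and 5.96 in adenocarcinomas 105 and 470, and 1.49, 3.20 and 1.46 in adenocarcinomas 131, 17 and 85. The lung tumors lay within the range of the adenocarcinomas of batch 3, and the difference of -3.27 (SE 1.11, limma adjusted p = 0.363) was -0.06 with scan batch as a term. Its other 2 probes, dim on most arrays, gave 0.26 and -0.63.

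Among the other T cell genes, the inhibitory receptor Pdcd1 (PD-1) differed by -2.32 (limma adjusted p = 0.326), the adhesion molecule Cd2 by -1.48 (0.330), the receptor regulator Cd5 by -1.20 (0.642), and the proximal kinase Lck by -1.16 (0.490). The CD3 zeta chain Cd247, which was not well above background in either lung tumor, was lower by at least 1.59-fold, though dimmer probes of this gene gave -0.12, 0.65 and 1.12. Foxp3 was well above background on 1 of the 3 mammary sarcomatoid tumors and on neither lung tumor. Its bound of 1.03-fold lower thus gave no clear direction. The costimulatory receptors Cd28 (-0.27) and Cd27 (-0.39), the kinase Zap70 (-0.09) and the inhibitory receptor Lag3 (0.03) differed by less than their standard errors, and Ctla4 was not well above background in any of these tumors. The costimulator Icos was 0.78 higher, with 4.71 in lung tumor 323 and 1.67 in lung tumor 307, and its other probe gave -0.89. The further T cell genes had a median of -0.14 with 14 of 23 lower and 0 called, the largest being the chemokine receptor Ccr7 (-3.04) and the receptor Cd6 (-2.22).

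**Figure D3:**
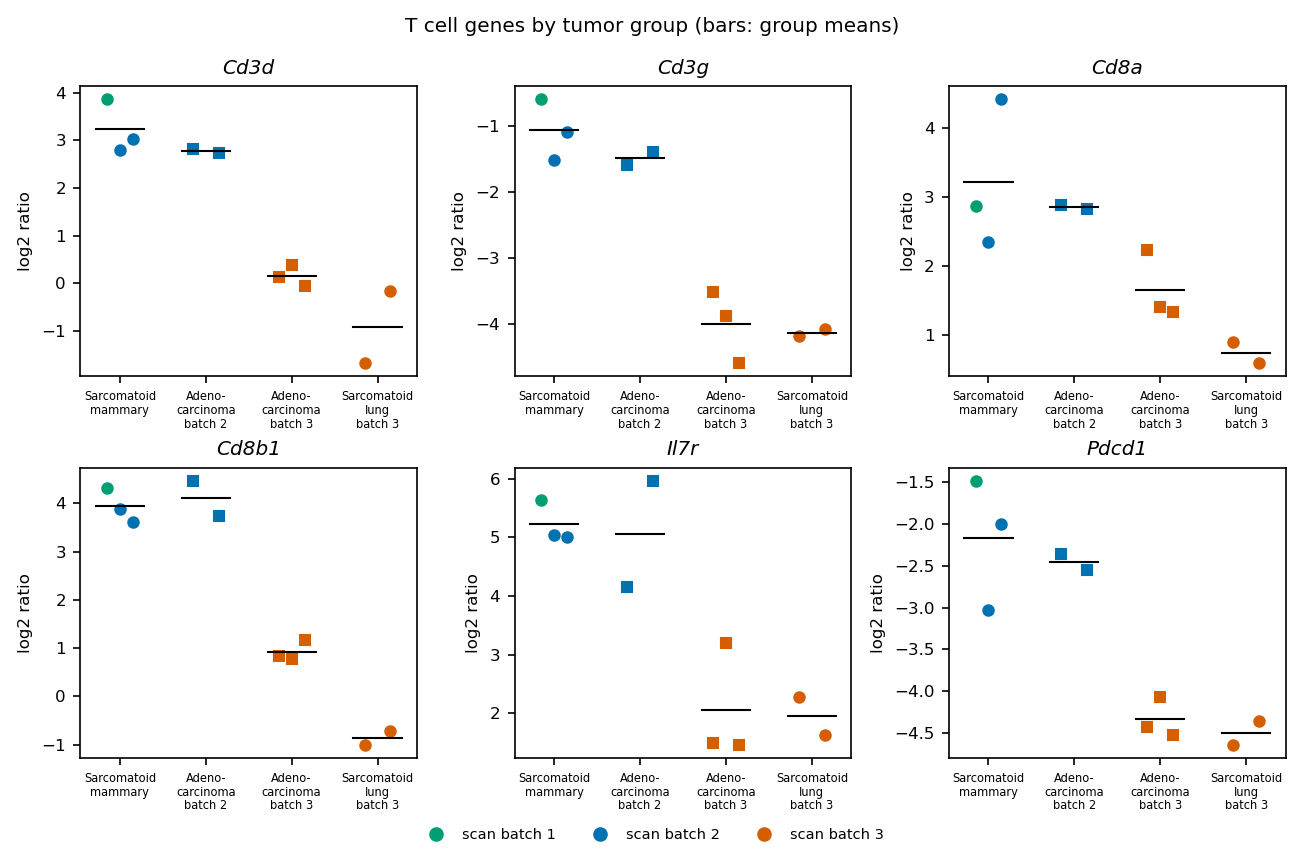
Log2 ratio of 6 T cell genes by tumor group. Circles are sarcomatoid tumors, squares adenocarcinomas, colours scan batches and bars group means. For all 6 genes the adenocarcinomas of scan batch 2 lie with the mammary sarcomatoid tumors and above the adenocarcinomas of scan batch 3.

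The levels of these genes followed the scan batch within adenocarcinomas alone, a comparison that was added after the values were seen. Tumors 105 and 470 (batch 2) were above tumors 131, 17 and 85 (batch 3) for 32 of the 35 genes, with a median difference of 1.48 against -0.08 over all probes. In limma, 2 genes rose past the adjusted p of 0.05, where 0.134% of all probes did, namely Cd8b1 (3.18, SE 0.34, adjusted p = 0.0283) and Nkg7 (2.12, SE 0.27, adjusted p = 0.0415). The different probe that carries the name Cd8b1, well above background on all arrays, gave -0.40, and the other Nkg7 probe gave 2.11. At an unadjusted p below 0.05, 16 genes were higher in batch 2 (against 7.04% of probes) and 0 were lower (7.36%). The arrays did not overlap for 21 genes that were higher (15.2% of probes) and for Cd4 and Blk, which were lower (18.7%), though a dimmer Cd4 probe was 0.38 higher. The median red spot intensities of these 2 genes went the other way. For Cd4 they were 148 and 139 in tumors 105 and 470, and 102, 56 and 97 in tumors 131, 17 and 85. For Blk they were 64 and 48, then 39, 34 and 38, and none of the last 3 was well above background. The median was 0.99 for the T cell genes (18 of 19 higher), 1.70 for the NK and cytotoxic genes (10 of 10) and 1.20 for the B cell genes (4 of 6). Other cells moved as well, with 12 of 12 pan-leukocyte genes (median 1.20) and 12 of 12 myeloid genes (median 1.11) higher in batch 2 and 7 of 7 epithelial genes lower (median -2.68), with 0 called on these lists, and adenocarcinoma 470 held the low epithelial values. The part of these shifts in the lymphocyte values was not tested. Leaving out any of lung tumors 323 and 307 and adenocarcinomas 131, 17 and 85 gave 0 genes past the adjusted p, and leaving out mammary tumor 307, mammary tumor 594 or adenocarcinoma 105 gave 1.

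Over both histologies, the 5 arrays of batches 1 and 2 and the 5 of batch 3 did not overlap for 12 genes that were higher in the former, against 2.84% of all probes. They were the T cell genes Cd3d, Cd3e, Cd3g, Cd8a, Cd8b1, Cd2, Il7r and Pdcd1, the cytotoxic genes Nkg7 and Ifng, and the B cell genes Cd79b and Ms4a1. Cd4 was the 1 gene that was lower without overlap (3.6% of probes). Its median red spot intensity, however, was higher there without overlap (122 to 204, against 56 to 102 in batch 3). In values recomputed from the scanner files, 11 genes were higher (8 T cell and 3 NK and cytotoxic, against 1.82% of probes) and 0 were lower (2.12%). The scan batch, the tumor and the day of processing cannot be told apart here, since each tumor was read in 1 batch.

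The spot intensities show which channel moved. For Cd8b1 the red median was 1521, 1409, 1196, 2129 and 1327 in tumors 323, 307, 594, 105 and 470, then 195, 189 and 155 in adenocarcinomas 131, 17 and 85 and 54 and 68 in the lung tumors, while the green median stayed between 58 and 94. For Cd3d the red median was 810 to 1337 on the first 5 of these arrays and 57 to 188 on the others, with green between 70 and 114. Pdcd1 had a red median of 294 to 654 and then 110 to 170, and Cd3g of 473 to 610 and then 73 to 118. The red median over all probes was 122 to 211 on the 10 arrays. For these 4 genes it was mainly the red channel, read as the tumor, that differed between scan batches. The green median over all probes was 71 to 100 in batches 1 and 2 and 96 to 121 in batch 3. Green was higher in batch 3 without overlap for some genes, Cd3d among them (70 to 88, then 96 to 114). For Klrd1 green was 30 to 44 and then 54 to 60, and for Prf1 28 to 38 and then 59 to 73. For others, such as Nkg7 (58 to 92, then 69 to 80), green overlapped.

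**Figure D4:**
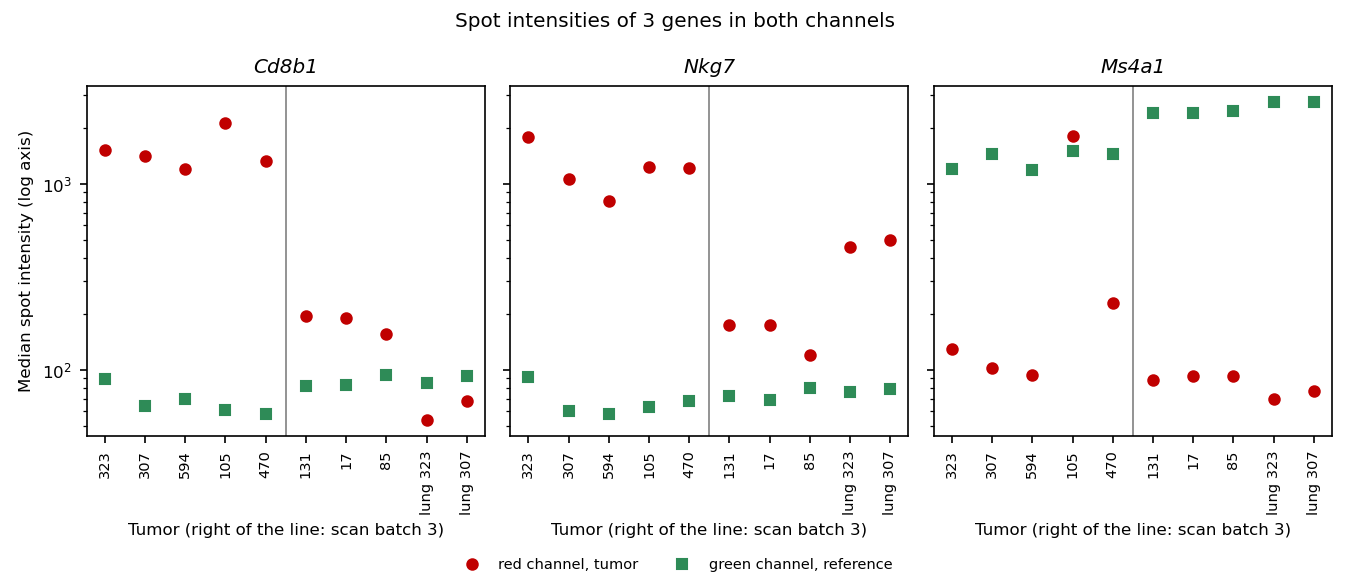
Median spot intensity on a log axis for Cd8b1, Nkg7 and Ms4a1 in each tumor, with the red channel (tumor) as circles and the green channel (reference) as squares. The vertical line parts scan batches 1 and 2 from batch 3. For Cd8b1 the red signal is 1196 to 2129 left of the line and 54 to 195 right of it, and for Ms4a1 the red signal is 1800 in adenocarcinoma 105 and 70 to 230 elsewhere.

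Within scan batch 3, the lung tumors could be set against adenocarcinomas read in the same way, which was also added after the values were seen. These groups differ in histology and in tissue at once. Here the NK and cytotoxic genes were higher in the lung tumors, by 9.63-fold for Gzma, 5.26-fold for Ncr1, 5.24-fold for Prf1, 4.95-fold for Klrd1 and 3.24-fold for Nkg7, while Cd8b1 was 3.45-fold and Cd3d 2.11-fold lower. Gzma, Ncr1 and Prf1 were well above background in red in only 1 of the 3 adenocarcinomas of batch 3. Cd8b1 and Cd3d were so in 1 of the 2 lung tumors. For Ncr1 the red median was 127 in adenocarcinoma 85, and 124 and 116 in lung tumors 323 and 307. Its green median was 145 in adenocarcinoma 85 and 46 to 59 on the other arrays of batch 3. On the log2 scale the different probe that carries the name Cd8b1 gave -0.26, and the other Nkg7 probe gave 1.41. None of the 35 genes passed limma at an adjusted p below 0.05, where 0.294% of probes did. The smallest adjusted p were those of Nkg7 (1.69, SE 0.27, adjusted p = 0.0563), Cd8b1 (-1.79, SE 0.34, 0.0700), Klrd1 (2.31, SE 0.45, 0.0720) and Ncr1 (2.40, SE 0.49, 0.0815). Nkg7 passed, at an adjusted p of 0.0415, with dim probes left out. It did not pass in most of the 14 alternatives.

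At an unadjusted p below 0.05, 7 genes were higher in the lung tumors, all of them NK and cytotoxic genes (against 7.58% of probes), and Cd8b1 and Cd3d were lower (7.03%). The arrays did not overlap for 8 genes that were higher, 7 of them NK and cytotoxic and the other Cd22 (14.1% of probes), and for Cd3d, Cd8a and Cd8b1, which were lower (15.1%). The median difference was 1.87 for the NK and cytotoxic genes (9 of 10 higher), -0.09 for the T cell genes (7 of 19 higher) and -0.06 for the B cell genes (2 of 6 higher). Cd8a was lower by at least 1.48-fold, and Eomes, not well above background in the 3 adenocarcinomas, differed by 0.15 (SE 0.41). Ifng was well above background on 1 of the 2 lung tumors and on no adenocarcinoma of batch 3. Its bound of 1.02-fold higher thus gave no clear direction. The further NK and cytotoxic genes were all higher (12 of 12, median 1.10), Cst7 the most at 2.78 (limma adjusted p = 0.0510).

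Other cells moved with them in batch 3. The pan-leukocyte genes were higher in 12 of 12 (median 1.87) and the myeloid genes in 12 of 12 (median 1.94), while the epithelial genes were lower in 7 of 7 (median -6.76, for example Krt8 at -7.06). The mean over the myeloid list was 3.31 to 3.36 in the lung tumors and 1.04 to 2.35 in adenocarcinomas 131, 17 and 85. The part of these shifts in the NK and cytotoxic values was not tested. Genes of normal lung epithelium gave a median of 0.05 between lung and mammary sarcomatoid tumors, with Sftpc 1.46 higher (limma adjusted p = 0.629) and Sftpd 2.06 lower on the log2 scale (-2.06, 0.517), and the mean over this list of 6 was 0.12 to 0.78 in the lung tumors and 0.05 to 0.89 in the mammary sarcomatoid tumors.

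Within scan batch 2, mammary sarcomatoid tumors 307 and 594 were set against adenocarcinomas 105 and 470. The medians were near 0, at -0.03 for T cell, -0.21 for NK and cytotoxic and -0.17 for B cell genes. None of the 35 genes passed limma at an adjusted p below 0.05 (0% of probes). At an unadjusted p below 0.05, 0 genes were higher (0.861% of probes) and Ms4a1 was lower (1.27%). The arrays did not overlap for 5 genes that were higher (24.4% of probes) and 3 that were lower (10.2%). Klrd1 (0.95) and Gzmb (0.96) were higher here too, whereas Gzma (-0.29), Prf1 (-0.81), Ncr1 (-0.12) and Il2rb (-0.39) were not. Some of these signs rested on 1 array. Without adenocarcinoma 470, whose markers went against its label, Gzma was 1.12 and Ncr1 0.42 higher, Prf1 (-0.24) and Il2rb (-0.44) were not, Klrd1 was 1.07 and Gzmb 1.76 higher, and the NK and cytotoxic median was 0.18. Without mammary tumor 307 Gzma was 0.65, Il2rb 0.25 and Ncr1 0.21 higher. With any 1 array left out the median ran from -0.69 to 0.23. The pan-leukocyte (median 0.55) and myeloid (median 0.45) genes were higher in 11 of 12 each, with 0 called.

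The difference between the batch 3 and batch 2 differences was also read. It is the same estimate as the lung against mammary difference with scan batch as a term, and not a separate result. Mammary tumor 323, the only array of its batch, does not enter it. The value was 3.20 for Prf1 (SE 0.88, limma adjusted p = 0.545), 1.54 for Nkg7 (SE 0.41, 0.545), 2.52 for Ncr1 (SE 0.73, 0.579) and 2.33 for Il2rb (SE 0.67, 0.570). None of the 35 genes passed at an adjusted p below 0.05 (0% of probes). At an unadjusted p below 0.05, 5 genes were higher, these 4 and Gzma (3.36% of probes), and Cd8b1 was lower (3.08%). For these 5 NK and cytotoxic genes the lung difference was the larger one, without passing the threshold over all probes.

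**Figure D5:**
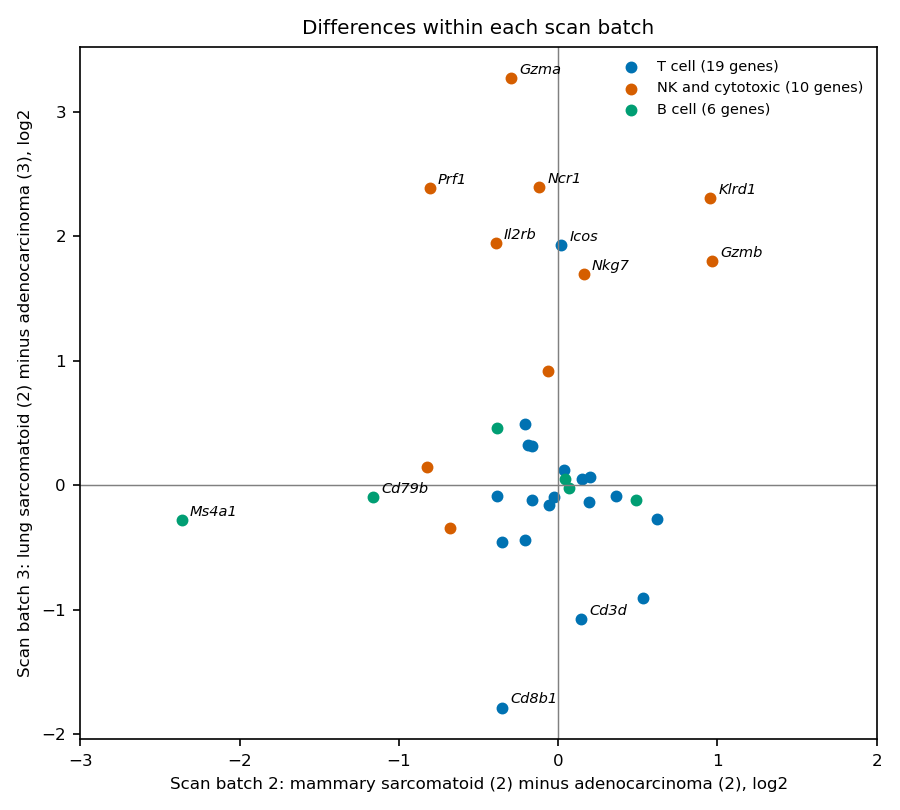
Log2 difference of each of the 35 genes within scan batch 2 (horizontal axis, 2 mammary sarcomatoid tumors minus 2 adenocarcinomas) and within scan batch 3 (vertical axis, 2 lung sarcomatoid tumors minus 3 adenocarcinomas). On the vertical axis 7 NK and cytotoxic genes lie between 1.69 (Nkg7) and 3.27 (Gzma), and Cd8b1 is lowest at -1.79, and Ms4a1 is at -2.37 on the horizontal axis.

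Of the 6 B cell genes, Ms4a1 and Cd79b stood far higher in adenocarcinoma 105 than in any other tumor. Ms4a1 (chr19:10931002-10931061), the surface protein CD20, had a log2 ratio of -5.50, -5.16 and -4.89 in mammary sarcomatoid tumors 323, 307 and 594, -6.92 and -6.50 in lung tumors 323 and 307, -1.26 and -4.06 in adenocarcinomas 105 and 470, and -6.47, -6.16 and -6.67 in adenocarcinomas 131, 17 and 85. Adenocarcinoma 105 was far above the next tumor, adenocarcinoma 470. Without tumor 105 the difference of Ms4a1 between the histologies was 0.04, in place of -0.87. The red median was 1800 in tumor 105 and 70 to 230 in the others, and the green median was 1186 to 1501 in scan batches 1 and 2 and 2401 to 2758 in batch 3, so for this gene the reference channel differed between batches as well. Cd79b, the beta chain of the B cell receptor complex, was at -3.95, -4.22 and -3.54 in mammary sarcomatoid tumors 323, 307 and 594, -5.32 and -4.31 in lung tumors 323 and 307, -1.25 and -4.20 in adenocarcinomas 105 and 470, and -4.65, -4.77 and -4.72 in adenocarcinomas 131, 17 and 85, with a red median of 3344 in tumor 105 and 182 to 427 in the others.

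Cd79a, the alpha chain, showed no such peak, at -0.30, -0.05 and 0.16 in mammary sarcomatoid tumors 323, 307 and 594, -0.74 and -0.60 in lung tumors 323 and 307, -0.04 and 0.01 in adenocarcinomas 105 and 470, and -0.40, -1.26 and -0.28 in adenocarcinomas 131, 17 and 85. It is printed above with its ETS match, and its red signal was well above background on 7 of 10 arrays. Pax5, the transcription factor that holds B cell identity, was dim (4 of 10 arrays) and was at 0.30, 0.05 and 1.01 in mammary sarcomatoid tumors 323, 307 and 594, 0.08 and 0.56 in lung tumors 323 and 307, 0.02 and 0.07 in adenocarcinomas 105 and 470, and 0.91, -0.40 and 0.81 in adenocarcinomas 131, 17 and 85. Its other probe, well above background on 1 array, gave -1.14 between the histologies against 0.12 for the brighter probe. The inhibitory receptor Cd22 was highest in adenocarcinoma 105 (3.10) and mammary tumor 594 (3.04), and the B cell kinase Blk was dim (3 of 10 arrays), with 1.18 in lung tumor 307 as its highest value.

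Between the histologies the B cell genes differed by -0.87 (Ms4a1, SE 0.92, limma adjusted p = 0.822), -0.35 (Cd79b, 0.908), 0.09 (Cd79a, 0.955), 0.06 (Cd22, 0.983), 0.12 (Pax5, 0.941) and -0.08 (Blk, 0.959). The further B and plasma cell genes (16 of 16 measured) had a median of 0.09 with 9 higher and 0 called, and of -0.41 between lung and mammary sarcomatoid tumors. Their mean was 0.77 in adenocarcinoma 105 and between -1.21 and 0.02 in the other 9 tumors. Pou2af1, a coactivator of B cell transcription, was at -2.16 in tumor 105 and between -6.06 and -4.01 in the others. The list of lymph node stroma genes (4 of 5 measured) had its highest mean in the same tumor, 3.54 against 0.57 to 1.68 elsewhere, with Ccl19 at 5.39, Glycam1 at 5.44, Cxcl13 at 3.94 and Madcam1 at -0.62. Single genes of the list were not particular to that tumor, as Ccl19 was at 5.29 in mammary tumor 594, Glycam1 at 4.01 in adenocarcinoma 131 and Cxcl13 higher still in lung tumor 307 (5.03) and mammary tumor 323 (4.32), while Madcam1 had its lowest value in tumor 105. The part of lymph node tissue in the B cell values of tumor 105 was not tested.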

How the data were processed

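RNA from 10 mouse tumors was hybridised to Agilent arrays of 2 colours, 1 array a tumor. Scanner files were deposited with spot intensity in each channel, local background and the log10 ratio (red over green), as written by the Feature Extraction software. The authors also deposited a normalized table of log2 ratios for 40196 probes of genes, and their methods and the submitters' processing notes name limma for it without steps or version. 
The table was used as deposited. Probes were named by symbol or synonym (32294 named) through a RefSeq gene table of assembly GRCm38, without its coordinates, and probe coordinates are those of the scanner files (mm7). Tests were limma (version 3.58.1, R 4.3.3) models moderated by empirical Bayes. Tests were two-sided, p-values were adjusted by Benjamini-Hochberg over all probes, and the threshold was 0.05. Sarcomatoid tumors were compared with adenocarcinomas by group alone, lung with mammary sarcomatoid tumors in a fit of 3 groups, and comparisons within scan batches in a fit of 5 groups. Bounds were set where a probe was not well above background on any array of a group: the bright group's mean normalized red signal over the mean, per array, of the higher of the dim probe's own signal and the lowest signal among probes well above background, from scanner intensities (normexp with an offset of 50, loess and Aquantile) and open to dye bias. Alternatives were 2 sets of values from the scanner files, median centring, leaving out probes well above background on fewer than 5 arrays, the mean over a gene's probes, scan batch, slide and tumor number as terms, and each array left out. Tests were checked on simulated data.

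Each column of the table correlated best with red over green of its own array (r from 0.868 to 0.926), and the lowest correlation between arrays was 0.414. Arrays hold no counts, and their number limits the precision. Lung and mammary tumors of the same number were paired by tumor origin for the replicate block. Values in every tumor are given for Cd3e, Cd4, Cd8a, Foxp3, Nkg7, Gzmb, Prf1, Ncr1, Cd79a, Ms4a1 and Pax5, and for the 3 genes with the smallest p and the 3 with the largest difference in the comparisons of the histologies and of lung with mammary tumors. Cd3g and Cd79b were added after their values were seen. The genes and lists were chosen with earlier results of these data known.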

Additional observations from a re-analysis of the deposited data

Results flagged for a closer look

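Of 76 sets of 5 arrays (each gene or list mean in each histology), 3 held an array that stood apart from the other 4 by Dixon's criterion, and chance gives about 1 in 20. Cd79b was at -1.25 in adenocarcinoma 105, where the other adenocarcinomas reached down to -4.77, and the gap to its nearest neighbour was 0.837 of the range of the 5. Cd22 was at 3.04 in mammary tumor 594, where the lowest sarcomatoid tumor was at 1.05 (gap 0.740 of the range). Blk was at 1.18 in lung tumor 307, where the lowest sarcomatoid tumor was at -0.19 (gap 0.795 of the range), and its red signal was well above background on 3 of 10 arrays.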

How the results depend on the processing

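None of the 35 genes passed an adjusted p of 0.05 between sarcomatoid tumors and adenocarcinomas under any of 22 alternatives, nor between lung and mammary sarcomatoid tumors under any of 19, and the number at an unadjusted p below 0.05 ran from 0 to 9 and from 6 to 15. Between lung and mammary sarcomatoid tumors the T cell median of -1.04 became -0.587 with normexp and loess and -0.105 with scan batch as a term, and lay between -1.277 and -0.739 with 1 array left out. The NK and cytotoxic median of -0.63 became 0.582 with the Feature Extraction log ratio, 1.445 with scan batch as a term and -0.139 with the replicate block on tumor number, and lay between -0.809 and -0.139 with 1 array left out. The B cell median of -0.56 became 0.427 with scan batch as a term, and lay between -0.828 and -0.217 with 1 array left out. With the replicate block the T cell median was -0.934 and the B cell median -0.217, 0 genes passed, and no call changed. Between the histologies the NK and cytotoxic median was -0.208 on the arrays of scan batch 2 alone and 1.873 on those of batch 3 alone. The batch 3 value sets lung tumors from injected cell lines against mammary primaries, so it does not separate histology from tissue or injection. The cause of these moves was not tested. Between adenocarcinomas of scan batches 2 and 3, the number of genes past the adjusted p ran from 0 to 5 over 14 alternatives, and all of these within-batch comparisons were chosen after seeing the data. Where 1 array of a pair was left out, the lone array was assumed to vary like the other groups. The sign of the difference was the same in every alternative for 8 of 35 genes between the histologies, 15 between lung and mammary sarcomatoid tumors and 29 between the adenocarcinomas of the scan batches. Dim probes limit Foxp3, Ctla4, Pax5 and Blk, for which most arrays gave only a bound.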
